A study of Mus musculus with 2 samples.

Results

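The genes described here are 8 secreted signals that act on blood cells, or on the cells that house them, and the complement component C3, as measured in non-haematopoietic cells of mouse long bone. The 9 members, of 28380 genes in the deposited tables, are Kitl, Csf1, Il7, Il34, Flt3l, Ccl19, Cxcl14, C3 and Il1rn. They were selected on their measured levels, as niche factors with a clear pattern over the stromal subtypes of these same 2 libraries, so the levels below and the contrast between the libraries are given as a description and without a test.

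Bone marrow stromal cells (BMSCs) make membrane-bound and secreted ligands that keep blood stem and progenitor cells alive and guide them. Adipoq- and Lepr-positive reticular cells of the marrow shaft are the best known source, and arterial endothelium and the mural cells around vessels are further sources of some of these ligands. Kitl (stem cell factor) binds Kit on stem, progenitor and mast cells. Csf1 and Il34 both bind Csf1r on the monocyte, macrophage and osteoclast lineage, Il7 supports early lymphocytes through Il7r and Il2rg, and Flt3l acts on progenitors through Flt3. Ccl19 is a chemokine ligand of Ccr7, Cxcl14 is a chemokine of skin and stroma, C3 is the central component of the complement cascade, and Il1rn is the antagonist that blocks Il1r1.

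The study asked how raised Dach1 in capillary endothelial cells (ECs) alters bone. Dach1OE mice carried the genotype label Apj CreERT2 - Dach1OE +/f, that is a Dach1 transgene in Rosa26 that is switched on by the Aplnr-CreERT2 driver of capillary ECs; the Control library carried Dach1OE +/f without the driver. Both libraries came from C57BL/6 mice of both sexes that had received tamoxifen and were at postnatal day 30, and the study's methods give a pair of mice for each library and a cross to the R26-mT/mG reporter. Femur and tibia were used with the epiphysis removed, and lineage-positive, CD45 and CD117 cells were depleted before capture. CD117 is Kit, so the depletion limits every value of Kit and of blood cells here, and the shares of cell types are also set by dissection and depletion.

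With 1 library for each group there is no replicate and no test. Levels are in CPM, the molecules (unique molecular identifiers, UMIs) of a gene in a cell type and library, scaled to a common total for all genes, and ratios are Dach1OE over Control on the log2 scale. Intervals are 95% intervals, exact Poisson for a level, exact conditional binomial for a ratio and Clopper-Pearson for a share, and they cover counting error only. To show some of the spread within a library, cells were also split into those with Xist alone and those with Y-linked UMIs alone, which gives 4 groups of cells. The groups hold only the 60.0% of Control and 57.3% of Dach1OE cells whose sex was told. A library value can therefore lie outside the range of its own groups. Subtype names mean cells that most resemble that type by its markers. Diaphyseal MSCs (dpMSCs) were gated on Adipoq, Lepr, Hp, Agt, Chrdl1, Esm1, Gdpd2 and Lpl. Metaphyseal MSCs (mpMSCs) fell into a Wif1 gate and an Aspn gate, and the other BMSCs were osteoblasts (OBs), osteocytes, septoclasts (SCs) and proliferating BMSCs (pBMSCs). ECs were split into marrow sinusoidal (bmEC), metaphyseal (mpEC), arterial (aEC), remodelling (rEC), tip-like and proliferating (pEC) cells. The pBMSC and pEC gates, and the chondrocytes gated on Col10a1 and Ibsp, had 0 of their own markers among their 10 leading genes by fold, so their values are read with that limit. In all, 25 subtypes held at least 50 cells in each library.

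After the study's cell filters, 26466 Control and 29317 Dach1OE cells remained, with 3793.5 and 4055 median UMIs per cell. The libraries shared 1049 cell indices, of which 879 were kept in both, and 198 of those fell in the same class. Dach1 itself was at 5.73 CPM in Control ECs and at 185 CPM in Dach1OE ECs, a log2 ratio of 5.01, and was 3.87 and 5.48 CPM in BMSCs. It was 5.06 and 11.0 CPM in dpMSCs, on 34 and 28 UMIs, with an interval of the log2 ratio from 0.35 to 1.89, and 2.55 and 12.9 CPM in smooth muscle cells, on 5 and 42 UMIs (2.34), and the part of this in the members' values was not tested. ECs without a subtype made up 13.9% of Control and 27.7% of Dach1OE ECs, and Scgb3a1-positive ECs numbered 10 and 889.

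For the members whose promoters bear on the results, the 250 bases before the RefSeq start site (GRCm38.p6) are shown. RefSeq entries were found for 7 of the 9 members, and Il7 and Il34 are only named. C3 and Csf1 are shown because C3 had the greatest difference between the libraries within dpMSCs and Csf1 had similar levels in 4 leading subtypes, and Cxcl14 because it had nearly equal levels, as did Il1rn, in the dpMSCs of both libraries. Capitals mark letters of 2 searched motifs, the EBF core CCCNNGGG and the C/EBP motif TTGCNNAA, both searched on both strands.
Csf1, chr3:107760470-107760719, minus strand: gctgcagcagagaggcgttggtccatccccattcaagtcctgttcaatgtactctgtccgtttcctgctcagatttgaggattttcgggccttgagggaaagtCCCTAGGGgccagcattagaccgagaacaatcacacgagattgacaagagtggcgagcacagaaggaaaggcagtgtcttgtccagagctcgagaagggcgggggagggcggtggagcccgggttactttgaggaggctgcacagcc
C3, chr17:57228137-57228386, minus strand: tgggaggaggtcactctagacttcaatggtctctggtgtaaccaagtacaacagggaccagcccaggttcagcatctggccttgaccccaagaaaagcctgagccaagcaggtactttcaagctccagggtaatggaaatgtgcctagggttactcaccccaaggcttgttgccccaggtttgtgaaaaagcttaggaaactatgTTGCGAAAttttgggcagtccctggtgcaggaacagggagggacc
Cxcl14, chr13:56296552-56296801, minus strand: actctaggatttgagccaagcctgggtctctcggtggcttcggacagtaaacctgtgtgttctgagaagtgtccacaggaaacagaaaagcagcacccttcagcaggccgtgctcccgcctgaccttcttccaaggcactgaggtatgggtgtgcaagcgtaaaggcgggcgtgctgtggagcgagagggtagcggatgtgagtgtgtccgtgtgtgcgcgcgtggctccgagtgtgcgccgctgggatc
The EBF core was found among the members' promoters only in Csf1, 147 bases before its start, and is present in 11.8% of all 32851 promoters of this length. The C/EBP letters were found only in C3, 45 bases before its start, against 9.56% of all promoters. The TATA box letters TATAAA were found only in Kitl, 25 bases before its start, against 12.4% of all promoters. These matches describe the letters in the windows and are not measured binding sites.

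In GENCODE vM21 on GRCm38 the members lie on 8 chromosomes and do not form a cluster. Kitl is at chr10:100015630-100100416, Csf1 at chr3:107741048-107760469, Il7 at chr3:7569994-7613760, Il34 at chr8:110741829-110805924 and Flt3l at chr7:45129788-45136432. Ccl19 is at chr4:42754525-42756577, Cxcl14 at chr13:56288643-56296551, C3 at chr17:57203970-57228136 and Il1rn at chr2:24336853-24351494. All are protein-coding. Il7, Il34 and Ccl19 overlap annotated genes on the opposite strand, Flt3l and C3 overlap one on the same strand, and reads of introns were counted without a stated use of strand, so those reads cannot be told apart. Ccl19 also has near-identical copies in the mouse genome, and its counts are uncertain for that reason.

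dpMSCs had the highest level, as the mean CPM of both libraries, of 8 of the 9 members among the 25 subtypes, with Flt3l as the exception. Over all genes with enough UMIs, 4.91% (752 of 15324) were highest in dpMSCs, and nothing is read from this comparison because the members were chosen on these levels. In the heat map of levels by subtype, the dpMSC row runs from a mean of 23.2 CPM for Ccl19 to 2589 CPM for Cxcl14. Kitl, Csf1 and Cxcl14 are also high in other subtypes.

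**Figure D1:**
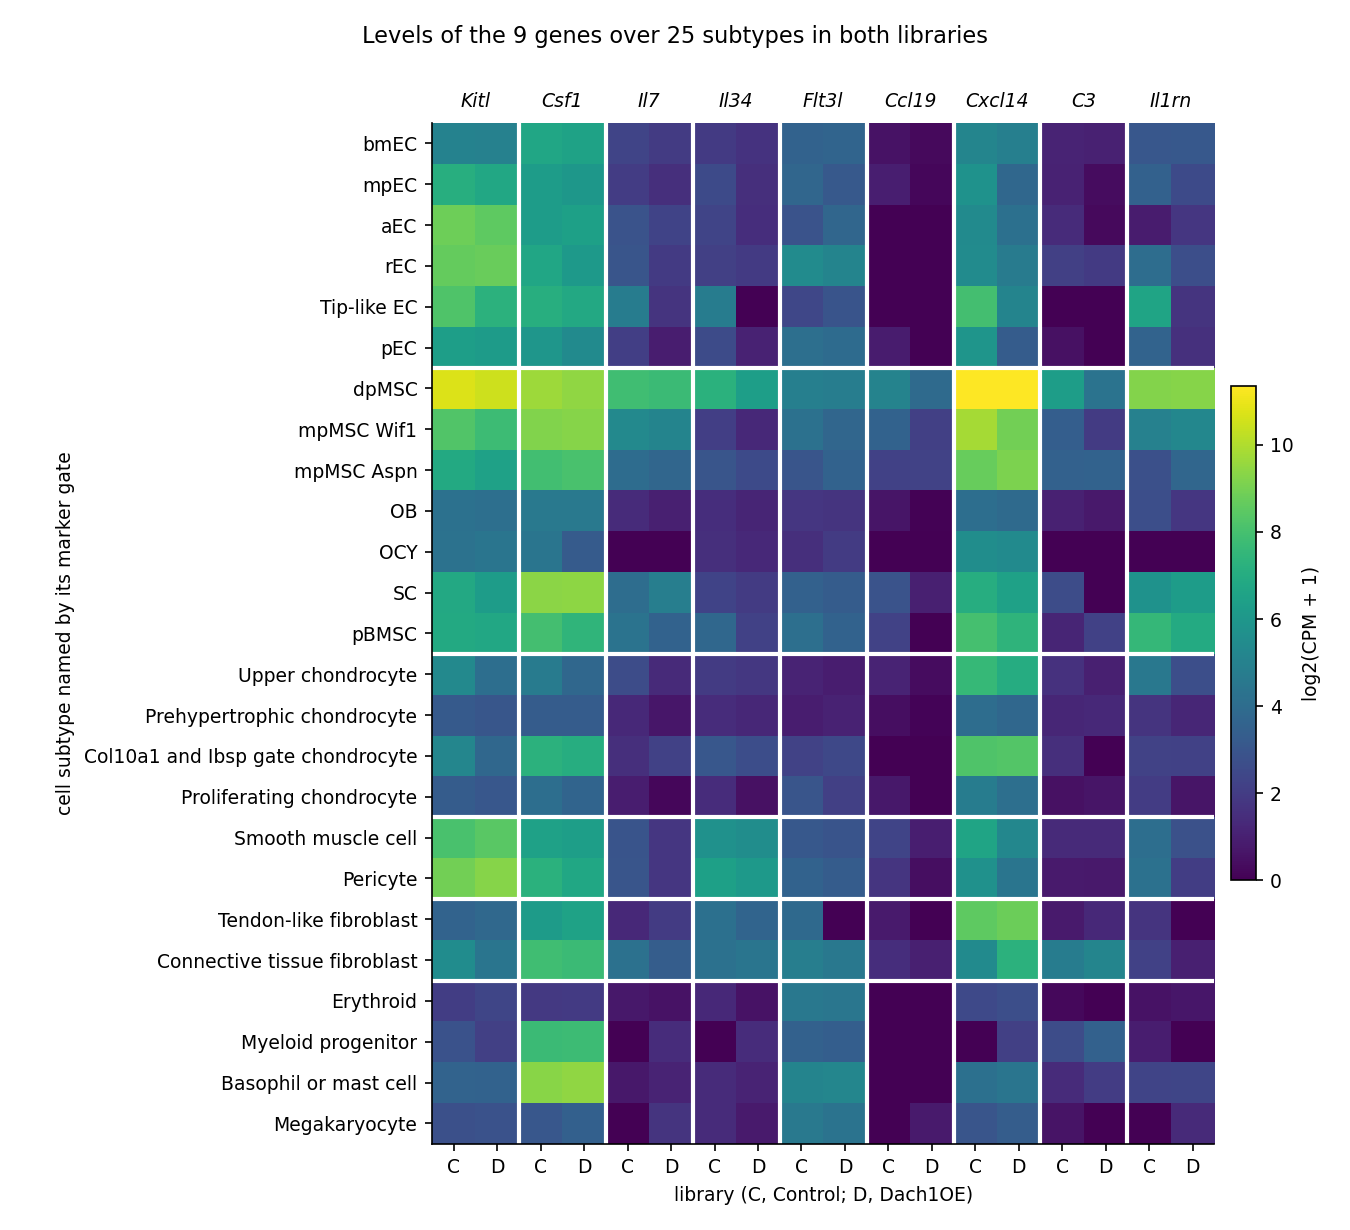
Heat map of member levels, as log2(CPM + 1), in the 25 subtypes (rows) for the 9 members (columns), with the Control (C) and Dach1OE (D) libraries side by side. dpMSCs are highest for 8 of the 9 members, and Kitl, Csf1 and Cxcl14 are also high in other subtypes.

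Kitl, the ligand that holds stem and mast cells, had 1715 CPM in Control dpMSCs and 1430 CPM in Dach1OE dpMSCs. Its next highest subtype was pericytes, with 491 and 619 CPM, followed by aECs with 460 and 372 CPM and rECs with 399 and 427 CPM. Smooth muscle cells had 272 and 347 CPM, and Wif1-gate mpMSCs 308 and 220 CPM. Over the 4 groups of cells dpMSCs ran from 1407 to 1857 CPM, above every group of pericytes. The lowest pericyte group, at 524.0 CPM, lay just above the highest aEC group, at 522.5 CPM, and aECs and rECs overlapped. Control pericytes as a whole, at 491 CPM, lay below that aEC group, as cells without a told sex are in no group. Sinusoidal bmECs were low, at 31.5 and 30.8 CPM.

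Csf1, the macrophage and osteoclast growth factor, had the flattest order of the stromal members. It was 829 and 708 CPM in dpMSCs, 669 and 679 CPM in SCs, 638 and 691 CPM in basophils or mast cells and 589 and 623 CPM in Wif1-gate mpMSCs. Neighbours among these 4 subtypes overlapped over the groups of cells. Csf1 was 104 and 90.2 CPM in bmECs and 214 and 220 CPM in myeloid progenitors.

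Il34, the other ligand of Csf1r, had a different distribution. It was 150 CPM in Control dpMSCs and 80.6 CPM in Dach1OE dpMSCs, and pericytes followed with 87.4 and 67.9 CPM and smooth muscle cells with 52.5 and 45.7 CPM. The lowest dpMSC group, at 67.1 CPM, fell within the range of the pericytes. In Dach1OE the levels in dpMSCs and pericytes were thus near each other, whereas Csf1 kept SCs, basophils and mpMSCs near dpMSCs in both libraries.

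Il7, the lymphocyte growth factor, was the member with the widest gap between dpMSCs and the next of the 25 subtypes, 6.08-fold. It was 233 and 212 CPM in dpMSCs, against 40.0 and 33.2 CPM in Wif1-gate mpMSCs. Lymphatic ECs, a set of 83 Control and 37 Dach1OE cells that is too small to be counted among the 25, held 83.6 and 143 CPM of Il7 on 19 and 16 UMIs. Their counting intervals, 50.4 to 131 and 81.6 to 232 CPM, were wide.

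Flt3l, the ligand of progenitors that carry Flt3, was low and spread over many types. It was highest in rECs, at 43.1 and 33.5 CPM, and the range of the 4 groups there reached from 0 to 48.5 CPM. Basophils or mast cells had 34.1 and 35.5 CPM, dpMSCs 29.2 and 27.1 CPM and erythroid cells 22.4 and 21.2 CPM. No neighbours in this order were separated over the groups of cells.

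The chemokines Ccl19 and Cxcl14 were both highest in dpMSCs. Cxcl14 had 2588 CPM in Control and 2589 CPM in Dach1OE dpMSCs, and 887 and 482 CPM in Wif1-gate mpMSCs, 415 and 554 CPM in Aspn-gate mpMSCs and 372 and 438 CPM in tendon-like fibroblasts. Ccl19 was sparse, with 32.3 and 14.2 CPM in dpMSCs on 217 and 36 UMIs, and 11.0 and 3.42 CPM in Wif1-gate mpMSCs. For both chemokines the dpMSC range over the 4 groups lay above that of the next subtype by mean level. For Ccl19 the Xist cells of Control SCs, at 16.3 CPM on 5 UMIs, lay above the lowest dpMSC group, at 14.7 CPM.

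C3 had 78.3 CPM in Control dpMSCs but 19.3 CPM in Dach1OE dpMSCs, on 526 and 49 UMIs. Connective tissue fibroblasts had 26.4 and 34.5 CPM. C3 was therefore highest in dpMSCs in Control and in connective tissue fibroblasts in Dach1OE, and the 4 dpMSC groups ran from 19.7 to 105 CPM. Together with Flt3l, it was one of the 2 members that were not highest in the dpMSCs of the Dach1OE library, where 7 of the 9 were, against 8 of 9 in Control.

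Il1rn, the interleukin 1 receptor antagonist, was 607 and 615 CPM in dpMSCs. pBMSCs followed with 188 and 122 CPM and SCs with 53.6 and 75.2 CPM, and the mean in dpMSCs was 3.94-fold that of the next subtype. In the pBMSC gate 24.8% and 24.7% of cells were marked as doublets by Scrublet, and that part of its Il1rn value was not tested. In dpMSCs Il1rn stood beside its target: Il1r1 was 221 and 199 CPM there, whereas the agonist Il1a was highest in the blood gates in megakaryocytes, at 74.1 and 87.0 CPM, with Il1b at 25.6 and 25.4 CPM.

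Single dpMSCs often held UMIs of several members. The members were chosen on their levels, so nothing is read from the contrast with other subtypes. Whether they occurred together more often than their single shares give was not tested. After each cell was thinned to 1000 UMIs, the mean number of the 9 members with a UMI was 2.97 in Control and 2.69 in Dach1OE dpMSCs, and 66.5% and 54.7% of cells held 3 or more. The same share was 6.99% and 5.63% in Wif1-gate mpMSCs and 0.323% and 0.235% in bmECs. Cells with 5 or more members made up 8.31% and 4.33% of dpMSCs.

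The share of thinned dpMSCs with a UMI was 76.8% and 71.9% for Kitl and 85.1% and 83.1% for Cxcl14. It was 53.6% and 45.7% for Csf1, 35.8% and 35.0% for Il1rn, 18.6% and 19.7% for Il7 and 13.0% and 6.79% for Il34. C3 was seen in 6.73% and 2.22%, Ccl19 in 3.69% and 1.76% and Flt3l in 3.34% and 2.34%. Erythroid cells, which should lack the stromal ligands Kitl and Cxcl14, gave 0.153% and 0.601% for Kitl and 0.307% and 0.601% for Cxcl14 at the same thinned depth. For Flt3l they gave 1.84% and 2.07%. Before thinning the median was 2715 and 2764 UMIs in dpMSCs and 7606 and 8610.5 UMIs in erythroid cells, 24 and 9 shallow dpMSCs were left out, and the share with Kitl was 93.69% and 90.03% in dpMSCs against 1.92% and 2.80% in erythroid cells. The Kitl and Cxcl14 shares in dpMSCs were thus far above those of erythroid cells. Flt3l was itself at 22.4 and 21.2 CPM in erythroid cells, so their share is not a blank for Flt3l in dpMSCs.

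C3 UMIs in dpMSCs were few for each cell, with 526 over 2299 Control cells and 49 over 863 Dach1OE cells. Without thinning, 346 (15.1%) and 45 (5.21%) of these cells held a C3 UMI, and the most in 1 cell was 10 and 2 UMIs. Il34 was found in 30.4% and 18.5% of them. By contrast Cxcl14 reached 100 and 68 UMIs in 1 cell.

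Over the 25 subtypes, as a description across types that share 2 libraries, the genes with a pattern most like Kitl were Ebf3 (Pearson's r = 0.92), Akr1c14 (0.92) and Fam13c (0.90) among 11210 genes. Il7 was most like Dpep1 (0.96), Aldh1a2 (0.95) and Cyp1b1 (0.94), and Il1rn most like Grem1 (0.95), Kng1 (0.93) and Dpep1 (0.91). Il34 was most like Fst and Rarres2 (both 0.90) and B3galnt1 (0.89), Ccl19 like Negr1 (0.91), Fam13a (0.90) and Fgf7 (0.89), and Cxcl14 like Ogn, Mdk and Ism1 (all 0.88). Csf1 was nearest to Spg21 (0.89), Gstm1 (0.88) and Tnrc18 (0.86), Flt3l to Usp25 (0.85), Nfe2l2 (0.84) and Zc3hav1 (0.83), and C3 had the weakest partners, Mmp19, Sfrp2 and Pla2g15 (all 0.78). Among the members, Il7 paired most closely with Il1rn and with Ccl19 (both r = 0.86), and Cxcl14 and Flt3l least (0.02).

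The Dach1OE and Control libraries were first compared over all BMSCs, 4976 and 6020 cells, the level at which the study described expression changes in stroma. The study also compared the fractions of BMSC subclusters, and expression in ECs. 7 of the 9 members were lower by 2-fold or more in Dach1OE BMSCs and none was higher. Of 12805 genes with at least 50 UMIs in 1 library, 3.08% were lower and 0.195% higher by that measure; since the members were chosen with this contrast known, nothing is read from their count. Their median log2 ratio was -1.38, beside -0.20 over all genes. Trimmed mean scaling (TMM) moved all BMSC ratios up by 0.20, which puts the members' median at -1.18.

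C3 went from 22.7 to 3.33 CPM in BMSCs, a log2 ratio of -2.77 (-3.10 to -2.45). Ccl19 went from 10.3 to 1.90 CPM (-2.44, -2.89 to -2.01) and Il34 from 39.7 to 9.02 CPM (-2.14, -2.34 to -1.94). These were the widest differences, and all had the same direction in Xist cells and in Y cells, at -1.93 and -3.53 for C3, -2.01 and -2.45 for Ccl19 and -1.78 and -2.72 for Il34. Kitl went from 499 to 179 CPM (-1.48, -1.53 to -1.43), Il7 from 67.6 to 26.0 CPM (-1.38, -1.50 to -1.25) and Cxcl14 from 823 to 339 CPM (-1.28, -1.31 to -1.24). Il1rn went from 169 to 70.5 CPM (-1.26, -1.34 to -1.19). Csf1, at 337 and 185 CPM, and Flt3l, at 11.9 and 6.69 CPM, differed by less than 2-fold, with log2 ratios of -0.87 and -0.84.

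The share of dpMSCs among BMSCs was also lower in Dach1OE. dpMSCs were 38.2% (37.0 to 39.4) of Control BMSCs and 17.3% (16.3 to 18.4) of Dach1OE BMSCs, and held 24.6% and 9.11% of the BMSC UMIs. The share was 37.9% and 19.7% in Xist cells and 38.1% and 14.4% in Y cells. The 8 dpMSC markers, none of which was at 0, summed to 7498 CPM in Control and 2759 CPM in Dach1OE BMSCs, a log2 ratio of -1.44.

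When each BMSC subtype was given its Control share of cells, the ratios of most members came near 0. Kitl became -0.28, Il7 and Csf1 both -0.14, Cxcl14 -0.07, Flt3l -0.17 and Il1rn 0.01. Those of C3, Ccl19 and Il34 remained further from 0, at -1.93, -1.25 and -0.89. These weights are shares of cells, not of UMIs. They leave out the BMSCs without a subtype, 8.62% of Control and 8.60% of Dach1OE BMSCs. The Control Kitl level was 782 CPM with these weights, beside 499 CPM over all BMSCs. The part of the subtype shares in the BMSC values was not tested.

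**Figure D2:**
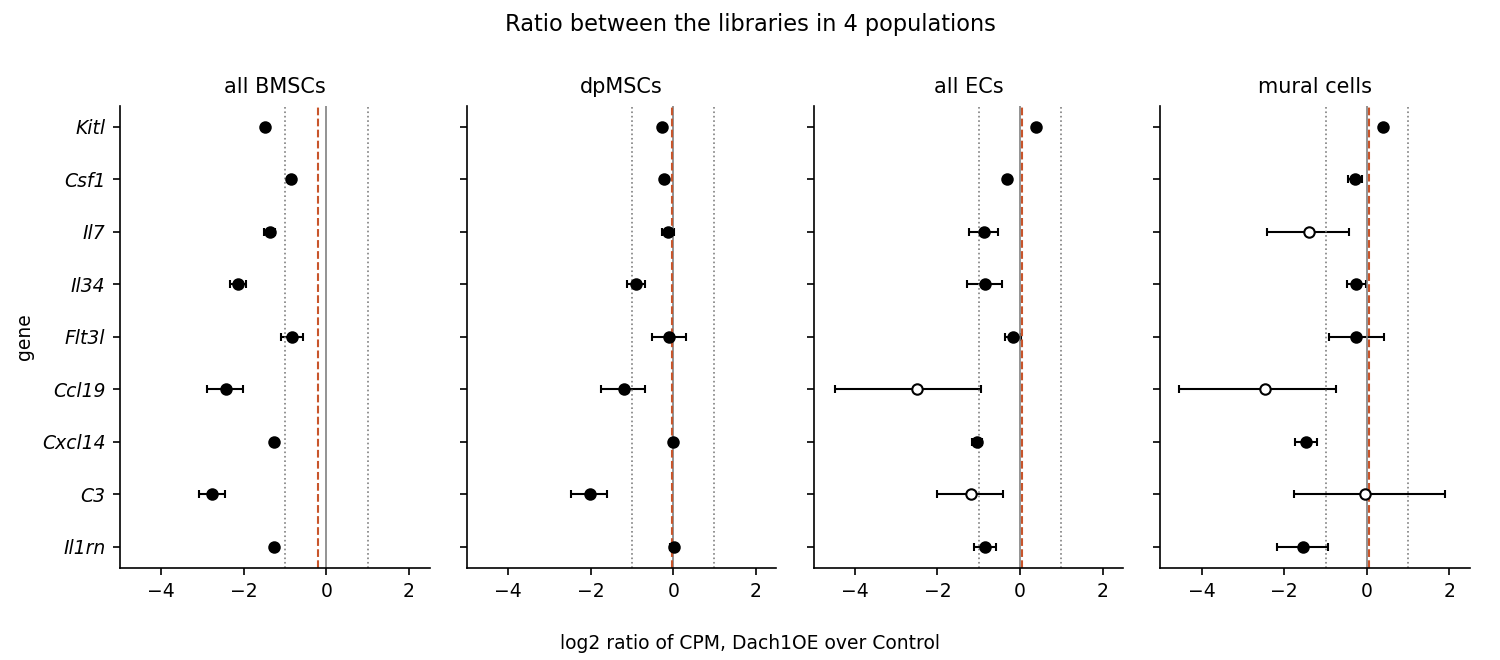
Log2 ratio of CPM, Dach1OE over Control, for the 9 members in all BMSCs, dpMSCs, all ECs and mural cells, with 95% counting intervals, open circles for genes under 50 UMIs in both libraries, dotted lines at 2-fold and a dashed line at the median of all genes. In BMSCs the members run from -2.77 to -0.84, in dpMSCs only C3 and Ccl19 pass 2-fold, and Kitl lies above 0 in ECs and mural cells.

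Within dpMSCs alone the members differed less. 2 of the 9, C3 and Ccl19, were lower by 2-fold or more in Dach1OE and none was higher, where 0.625% of 9757 genes were lower and 0.195% higher. The median over the members was -0.23, beside -0.02 over all genes. For 6 of the 9 (Kitl, Csf1, Il7, Il34, Ccl19 and C3) both Dach1OE groups of cells lay below both Control groups and for none above, where 20.2% of all genes lay below and 15.8% above. The 8 dpMSC markers, which set the gate, summed to a log2 ratio of -0.16 there and ran from -0.21 for Lepr and Lpl to 0.08 for Hp.

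C3 was 65.8 CPM in Control Xist cells and 105 CPM in Control Y cells, and 24.6 and 19.7 CPM in the corresponding Dach1OE dpMSCs. The libraries did not overlap, and the log2 ratio was -2.02 (-2.48 to -1.60) over all dpMSCs, -1.42 (-2.09 to -0.81) in Xist cells and -2.41 (-3.50 to -1.49) in Y cells.

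Il34 was 127 and 169 CPM in the Control Xist and Y cells and 79.6 and 67.1 CPM in those of Dach1OE. Its log2 ratio of -0.89 (-1.12 to -0.68) was short of 2-fold, although the groups did not overlap. Ccl19 was 30.0 and 30.9 CPM in Control and 14.7 and 19.7 CPM in Dach1OE, with a ratio of -1.19 (-1.74 to -0.68) that was -1.03 in Xist cells and -0.65 (-1.81 to 0.37) in Y cells, where the interval took in 0.

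Kitl was 1857 and 1636 CPM in the Control groups and 1514 and 1407 CPM in the Dach1OE groups, and Csf1 was 868 and 824 against 710 and 690 CPM. Neither overlapped, and the differences were small, with log2 ratios of -0.26 (-0.32 to -0.21) and -0.23 (-0.31 to -0.15). Il7 was 243 and 229 against 220 and 213 CPM, a ratio of -0.13 (-0.28 to 0.01), and did not overlap either.

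Cxcl14 was 2765 and 2407 CPM in Control Xist and Y cells and 2797 and 2450 CPM in Dach1OE. Xist and Y cells thus differed more than the libraries did. With a pair of mice in each library, sex cannot be told apart from the mouse. The log2 ratio of Cxcl14 was 0.00 (-0.04 to 0.04), and -0.10 (-0.17 to -0.02) after thinning. Il1rn was 564 and 609 against 579 and 724 CPM, with a ratio of 0.02 (-0.07 to 0.10), and Flt3l 28.6 and 34.0 against 31.5 and 25.6 CPM (-0.10, -0.52 to 0.30). For these 3 the groups overlapped.

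**Figure D3:**
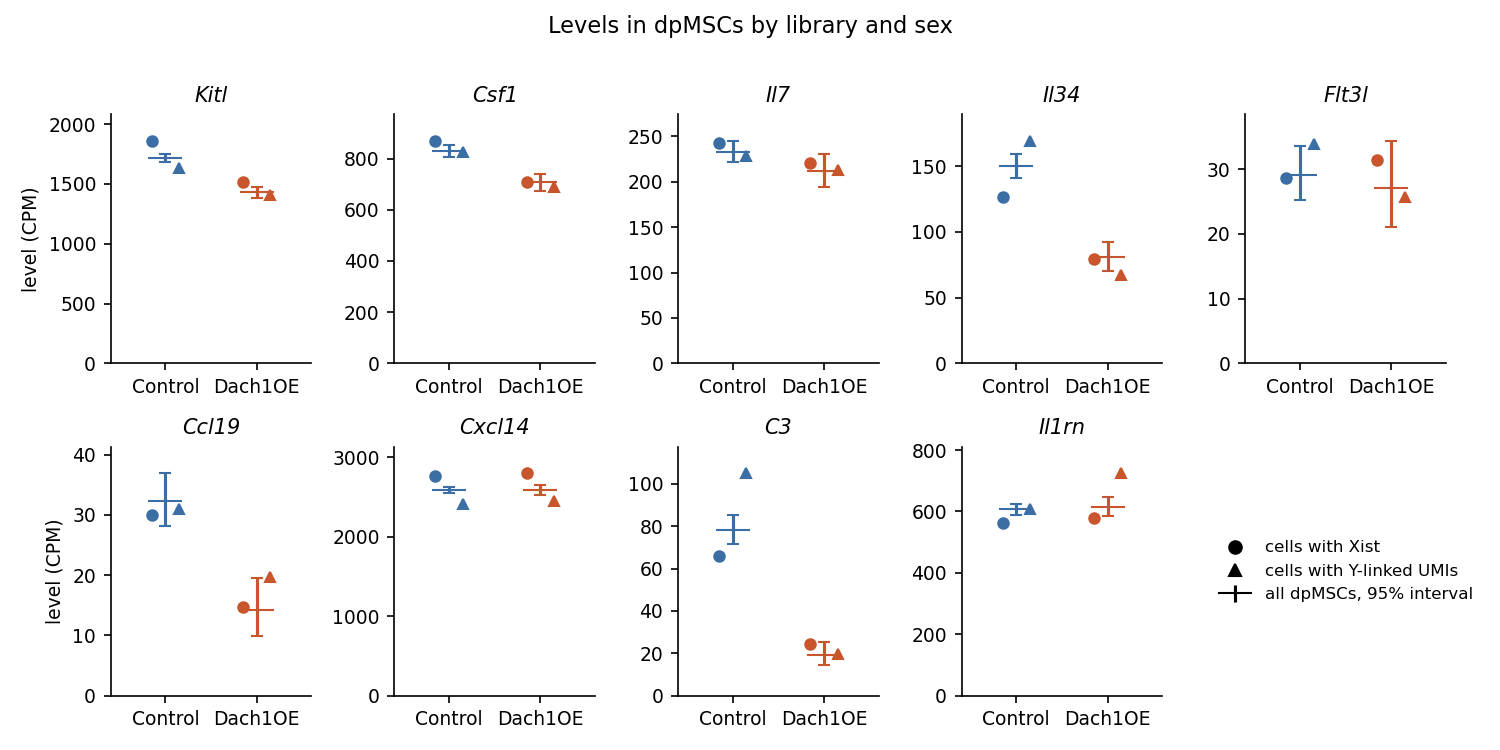
Level of each member in dpMSCs in CPM (linear axis from 0), with the library value and its 95% Poisson interval as a horizontal mark and the Xist cells (circles) and Y cells (triangles) of each library as points. C3, Il34, Ccl19, Kitl, Csf1 and Il7 of Dach1OE lie below those of Control in both kinds of cell, while Cxcl14 is 2588 and 2589 CPM.

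Outside dpMSCs the stromal members moved gene by gene. In Wif1-gate mpMSCs, 854 Control and 616 Dach1OE cells, Kitl had a log2 ratio of -0.49 (308 and 220 CPM) and Cxcl14 one of -0.88 (887 and 482 CPM), while Csf1 was at 0.08. C3, on 26 and 6 UMIs, and Ccl19, on 30 and 7 UMIs, were at -1.70 and -1.69 there, and Il1rn was at 0.25. Adipoq was also lower in these Wif1-gate cells, at 275 and 193 CPM. In Aspn-gate mpMSCs Cxcl14 was higher, with a ratio of 0.42. In SCs, Kitl was at -0.59. In OBs Il1rn was 5.61 and 2.42 CPM (-1.22), beside Adipoq at -0.81 and Csf1 at 0.02.

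In connective tissue fibroblasts Cxcl14 was higher and Kitl lower by 2-fold, where 0.629% of 3974 genes were higher and 2.04% lower. Connective tissue fibroblasts had 41.4 CPM of Cxcl14 in Control and 157 CPM in the Dach1OE library, on 47 and 155 UMIs, a log2 ratio of 1.92 (1.45 to 2.43). Over all fibroblasts the ratio was 0.28, with 0.68 in Xist cells and -1.40 in Y cells, so the direction depended on which cells were taken. Kitl in the connective tissue fibroblasts was 44.0 and 20.3 CPM, on 50 and 20 UMIs (-1.12, -1.95 to -0.34).

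The cells that supplied each member's UMIs shifted between the libraries. dpMSCs gave 58.6% of all Kitl UMIs in Control and 26.7% in Dach1OE, while mural cells went from 6.67% to 23.5% and aECs from 2.88% to 12.2%. For Il34, dpMSCs went from 58.8% to 22.4% and mural cells from 14.4% to 41.9%. For C3, dpMSCs went from 64.2% to 17.4%, prehypertrophic chondrocytes from 5.25% to 20.3% and fibroblasts from 3.79% to 12.5%.

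dpMSCs remained the main source of Il1rn (74.2% and 61.9%), Il7 (68.1% and 54.4%), Ccl19 (60.1% and 48.6%) and Cxcl14 (61.0% and 44.8%). Csf1 came from dpMSCs for 31.99% and 13.37% and from basophils or mast cells for 11.0% and 17.1%. Flt3l was never mainly stromal, with 13.6% and 5.15% from dpMSCs and 28.7% and 34.3% from blood cells. Of its 1437 Control and 1339 Dach1OE UMIs, ECs held 454 and 415 and all BMSCs 327 and 187. These shares follow the number of cells captured as well as the level per cell.

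**Figure D4:**
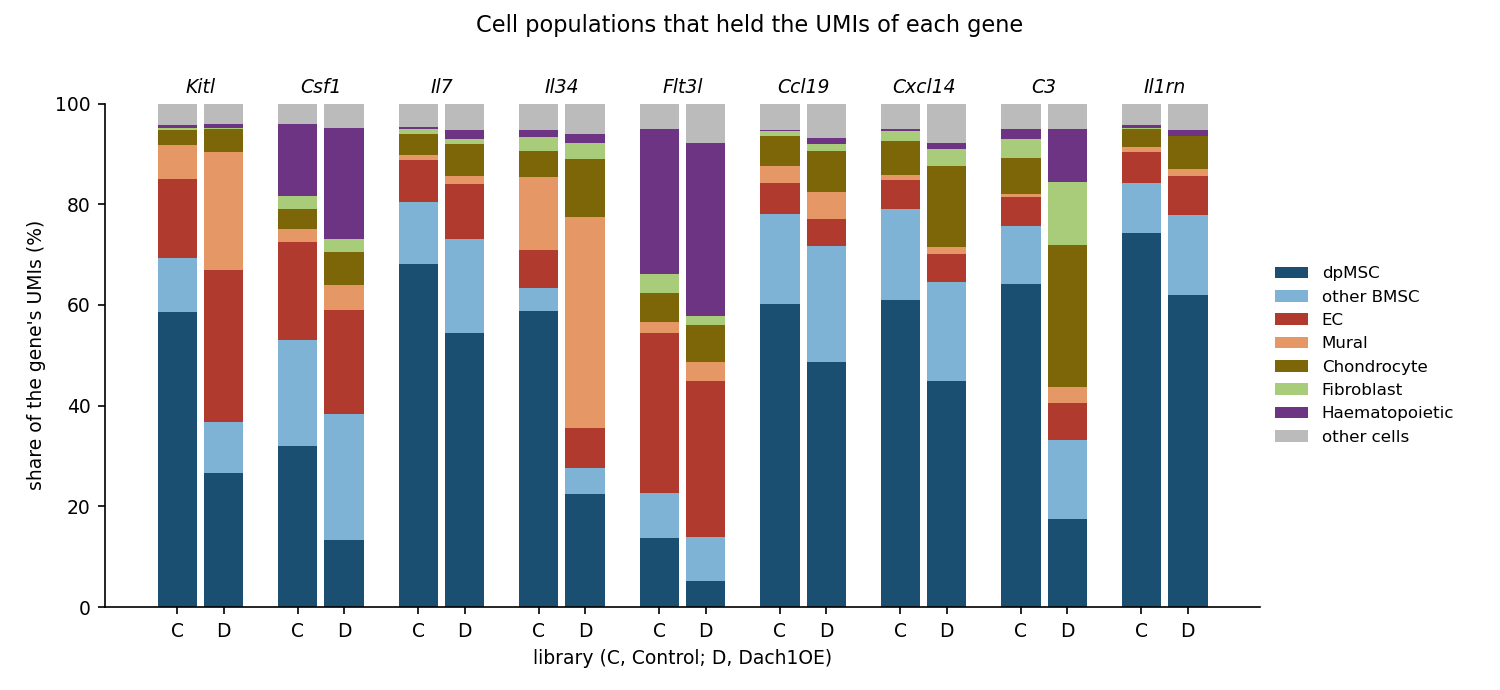
Share (%) of each member's UMIs in a library that came from dpMSCs, other BMSCs, ECs, mural cells, chondrocytes, fibroblasts, blood cells and other cells, as stacked bars for Control and Dach1OE. The dpMSC part of Kitl is 58.6% in Control and 26.7% in Dach1OE, and that of C3 is 64.2% and 17.4%.

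In ECs, where the transgene is switched on, Kitl was the only member above Control. It was 86.7 CPM in 10071 Control ECs and 113 CPM in 10491 Dach1OE ECs, which gives a log2 ratio of 0.38 (0.32 to 0.45), with 0.15 (0.03 to 0.26) in Xist cells and 0.78 (0.64 to 0.92) in Y cells. None of the named EC subtypes was higher in Dach1OE beyond its interval: aECs went from 460 to 372 CPM (-0.31, -0.45 to -0.17), mpECs from 136 to 111 CPM (-0.30, -0.45 to -0.15), rECs from 399 to 427 CPM (0.10, -0.20 to 0.40), tip-like ECs from 293 to 154 CPM (-0.93, -1.43 to -0.42), and bmECs stood at -0.03 and pECs at -0.16. Adipoq was also lower in tip-like ECs, at 783 and 88.5 CPM, and its part in their Kitl value was not tested. aECs, which with rECs had the highest Kitl levels of the EC subtypes, numbered 371 in Control and 1253 in Dach1OE. The rEC gate went the other way, with 192 cells in Control and 110 in Dach1OE. The study describes an expansion of remodelling (type R) vessels in stained Dach1OE femurs, and why this gate held fewer cells was not tested. bmECs, with the lowest, numbered 5990 and 2623. With subtypes weighted by their Control shares, which leaves out the ECs without a subtype, the ratio was -0.18, and the part of the subtype shares in the EC value was not tested. Scgb3a1 ECs of Dach1OE had 37.3 CPM of Kitl, and their Control counterpart of 10 cells held 0 Kitl UMIs, which allows up to 109 CPM.

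**Figure D5:**
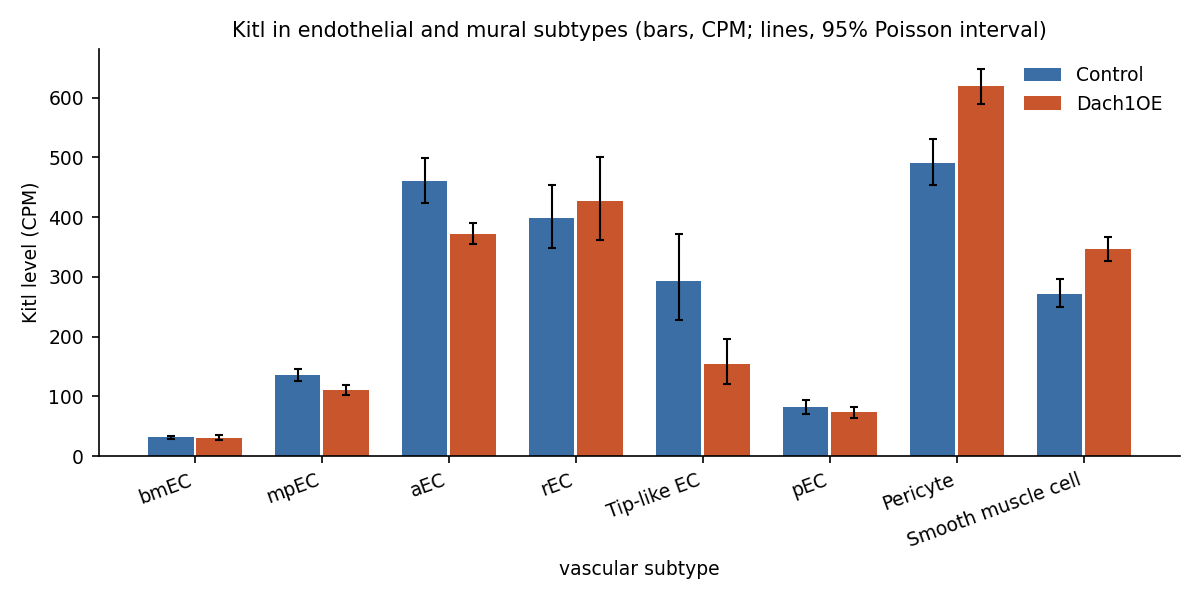
Kitl level in CPM in the 6 EC subtypes, pericytes and smooth muscle cells of the Control and Dach1OE libraries, with 95% Poisson intervals as lines. aECs and rECs lie far above bmECs, aECs are lower in Dach1OE (460 and 372 CPM) and pericytes higher (491 and 619 CPM).

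Mural cells, which numbered 1295 and 2607, also had more Kitl in Dach1OE, 359 and 474 CPM, a log2 ratio of 0.40 (0.31 to 0.50). The value was 0.09 (-0.08 to 0.26) in Xist cells and 0.79 (0.57 to 1.02) in Y cells. Unlike in ECs, it was found within the subtypes, at 0.33 in pericytes and 0.35 in smooth muscle cells, and was 0.34 with Control shares. Il34 in mural cells was 67.5 and 56.6 CPM (-0.25, -0.49 to -0.02).

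Among the other members in ECs, Csf1 was at -0.33 and Flt3l at -0.16 (-0.36 to 0.03). In all, 7 members, Kitl included, had at least 50 UMIs in 1 library, 0 were higher and 1 was lower by 2-fold, where 2.67% of 13256 genes were higher and 1.87% lower. That member, Cxcl14, was 46.9 and 22.9 CPM (-1.03, -1.16 to -0.91), and Il7 (5.42 and 2.94 CPM) and Il1rn (9.44 and 5.28 CPM) had ratios of -0.88 and -0.84. All 8 dpMSC markers were detected in ECs and were lower in Dach1OE, from -1.20 for Adipoq (122 and 52.8 CPM) to -0.66, and summed to 686 and 384 CPM; their part in these results was not tested. Without cells marked by Scrublet, Cxcl14 in ECs was at -0.08 (-0.30 to 0.14), Il7 at -0.23 and Il1rn at -0.47, whereas Kitl was at 0.64.

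In mural cells 6 members reached 50 UMIs, 0 were higher and 2 lower by 2-fold, where 0.789% of 10008 genes were higher and 0.62% lower. These were Cxcl14, at 81.2 and 29.3 CPM (-1.47), and Il1rn, at 16.4 and 5.62 CPM (-1.54), and Adipoq was 137 and 54.7 CPM there (-1.32). Tip-like ECs, 56 and 130 cells, held 96.2 and 2.27 CPM of Il1rn, on 22 and 1 UMIs. Their summed dpMSC markers were 3100 and 715 CPM. The part of the markers in these values was not tested.

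Adipoq was also used as a yardstick. The ratio of a member to Adipoq in dpMSCs, times the Adipoq level of another subtype, gave 97.02% of the Cxcl14 level measured in Control bmECs and 70.4% in Dach1OE bmECs, and 108% and 61.6% of the Il1rn level. For Kitl the same product was 3.37% and 2.12% of the aEC level, 5.004% and 1.06% of the pericyte level and 71.7% and 35.7% of the bmEC level. For Csf1 it was 0.848% and 0.571% of the basophil level and 0.976% and 0.933% of the SC level, and for Il34 2.45% and 0.545% of the pericyte level. The product was thus near the measured level for Cxcl14 and Il1rn in Control bmECs and a small part of it for Kitl in aECs and pericytes, Csf1 in SCs and basophils and Il34 in pericytes. It rests on 1 marker and on the dpMSC profile, and the part of dpMSC RNA in these levels was not tested.

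Blood cells that escaped depletion carried receptors for some members. Kit was 101 and 107 CPM in myeloid progenitors, 24.3 and 41.4 CPM in erythroid cells and 26.4 and 26.2 CPM in basophils or mast cells. Csf1r was 17.5 and 42.4 CPM and Flt3 29.8 and 48.4 CPM in myeloid progenitors, on 20 and 49 and on 34 and 56 UMIs. In basophils or mast cells Il7r was 21.4 and 21.1 CPM, Il2rg 210 and 221 CPM and the C3a receptor C3ar1 24.0 and 29.2 CPM. Kit and Il2rg were not particular to blood cells. Il2rg was 316 and 330 CPM in bmECs, and Kit was 22.3 and 28.1 CPM in all ECs. Ccr7 had at most 1 UMI in any blood subtype of either library. Within blood cells 4 members had enough UMIs and none was lower or higher by 2-fold, where 0.439% of 11395 genes were lower and 0.316% higher, and Csf1 in basophils or mast cells was 638 and 691 CPM (0.11, 0.03 to 0.20).

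Of the 16 receptors of the members, 7 reached 50 UMIs in BMSCs, and 1 was lower and 0 higher by 2-fold (3.08% and 0.195% of all genes). That was Il1r1, the receptor blocked by Il1rn, at 69.3 and 31.1 CPM (-1.16, -1.27 to -1.04), while the median of the 7 was -0.36. In dpMSCs none of 7 was lower or higher by 2-fold (0.625% and 0.195% of all genes), and Ackr4, a scavenging receptor that binds Ccl19, was 709 and 692 CPM there. Sdc1 and Ptprz1, further binding partners of Il34, were 140 and 173 CPM and 12.9 and 19.3 CPM. In ECs 1 of 8 was higher and 1 lower (2.67% and 1.87% of all genes), Sdc1 at 7.28 and 15.5 CPM (1.09) and Csf1r on 50 and 22 UMIs (-1.22).

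Of 24 other niche cytokines and adhesion ligands, 16 were measured in BMSCs, 7 were lower and 0 higher, with a median of -0.95, where 3.08% of all genes were lower and 0.195% higher. Vcam1, which tethers blood cells, was 503 and 162 CPM (-1.63), Il15 16.9 and 5.76 CPM (-1.55), the chemokine Cxcl13 4.93 and 1.29 CPM (-1.94) and Ccl21a had 84 and 1 UMIs (-6.42, -11.7 to -3.90). Cxcl12, the main retention chemokine of blood stem cells, is added after its values were seen: it was 12179 and 4699 CPM (-1.37). In dpMSCs 2 of 16 were lower and 0 higher (0.625% and 0.195% of all genes), Cxcl1 on 71 and 9 UMIs (-1.58) and Ccl21a on 51 and 0 UMIs. In ECs 2 of 16 were lower and 0 higher (1.87% and 2.67% of all genes), Vcam1 at 932 and 451 CPM (-1.05) and Ccl21a (-1.17).

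Of 20 complement genes, 13 were measured in BMSCs, 4 were lower and 0 higher (3.08% and 0.195% of all genes), with a median of -0.73. The proteases C1ra, 113 and 41.5 CPM (-1.44), and C1s1, 124 and 45.6 CPM (-1.44), the inhibitor Serping1, 1130 and 497 CPM (-1.19), and the C5a receptor C5ar1 (-1.54) were those 4. In dpMSCs, where C3 was at -2.02, 1 of 10 was lower and 0 higher (0.625% and 0.195% of all genes), C5ar1 on 83 and 13 UMIs (-1.27), and the median was -0.18. In ECs 2 of 14 were lower and 0 higher (1.87% and 2.67% of all genes), C5ar1 (-2.22) and Cfd (-2.11).

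Of 10 adipogenic regulators, 4 were lower in BMSCs and 0 higher (3.08% and 0.195% of all genes), with a median of -0.90. These were Ebf3 at 208 and 80.0 CPM (-1.38), Cebpa at 126 and 49.5 CPM (-1.34), Pparg on 2175 and 894 UMIs (-1.31) and Ebf1 at 286 and 136 CPM (-1.07). In dpMSCs none of the 10 was lower or higher by 2-fold (0.625% and 0.195% of all genes) and their median was -0.18. In ECs 1 of 10 was higher and 0 lower (2.67% and 1.87% of all genes), Klf15 on 24 and 53 UMIs.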

How the data were processed

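BD Rhapsody whole-transcriptome libraries of Control and Dach1OE long-bone cells were analysed, 1 library per group. The deposited tables hold counts of molecules per cell and gene, made by the authors on mm10 (BD Rhapsody WTA Analysis Pipeline, 1.11 per the file headers), and the RSEC-adjusted molecules were used. Total counts were 143986818 and 166999989. The study's own limits were applied (500 to 6000 genes, less than 25% of UMIs from mitochondrial genes), and each remaining cell was gated to the class and then the subtype whose markers it expressed most (at least 2 markers detected, a margin of 1.2 over the next type). No class was given to 3.90% and 4.37% of cells, and Scrublet marked 6.52% and 6.64% as doublets, which were kept. Sex was told for 60.0% and 57.3% of cells from Xist and 4 Y-linked genes.

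The members, gene lists and comparisons were chosen with earlier results of these data known. All members are named; from each list the genes with the largest difference past 2-fold and with at least 50 UMIs in 1 library are named, up to 4 per list and comparison, with the members' receptors in blood subtypes. Like genes are the 3 with the highest Pearson correlation of log2(CPM + 1), among genes with at least 20 CPM in 1 subtype. A gene was called higher or lower at a fold of 2 with at least 50 UMIs in 1 library. The alternatives were raw molecules, other cell filters (1000 genes, 10% mitochondrial UMIs), graph clusters in place of gates, a gate margin of 2, removal of Scrublet cells, thinning to 1000 UMIs, each sex alone, TMM scaling (edgeR 4.0.16), a filter at 10 UMIs and subtype weights. Ratios and intervals were run on simulated Poisson counts drawn from the summed Control dpMSC counts. Those counts hold no spread between cells or mice, so the run checks the calculation only. Python 3.11.15 with scanpy 1.11.5, numpy 2.4.6, scipy 1.17.1 and pandas 2.3.3 was used.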

Additional observations from a re-analysis of the deposited data

Results flagged for a closer look

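Kitl went opposite ways in vascular and in stromal cells over the whole libraries. Its log2 ratio of Dach1OE over Control was 0.38 in ECs and 0.40 in mural cells, against -1.48 in BMSCs, -0.59 (-1.20 to -0.01) in fibroblasts and -0.40 in chondrocytes. In cells with Xist and in cells with Y-linked UMIs it was 0.15 and 0.78 in ECs, and 0.087 (-0.08 to 0.26) and 0.79 in mural cells. It was -1.32 and -1.60 in BMSCs, -0.35 (-1.32 to 0.57) and -1.35 (-3.41 to 0.32) in fibroblasts and -0.083 (-0.35 to 0.18) and -0.53 in chondrocytes, so that the intervals of Xist mural cells, of both kinds of fibroblast and of Xist chondrocytes held 0. The 8 dpMSC markers, none at 0, summed to -0.75 in fibroblasts and -0.64 in chondrocytes. Lpl gave 778 of the 1163 Control marker UMIs in fibroblasts, and Chrdl1 10143 of 18960 in chondrocytes. Adipoq was at -3.24 (-5.17 to -1.80) in fibroblasts, on 53 and 4 UMIs, and at -0.99 in chondrocytes. The part of the markers in these values was not tested. With Control subtype shares the values were -0.28 in BMSCs and -0.18 in ECs. The difference between these classes was not tested, since each group is 1 library.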

How the results depend on the processing

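No paired analysis was possible because each group is 1 library and the labels number no replicates. The number of members highest in dpMSCs was 8 under most alternatives, 7 with a gate margin of 2 and 9 in Y cells alone. Fewer subtypes held at least 50 cells in each library in some of these. There were 25 in the main setting, 21 with that margin, 19 in Xist cells and 14 in Y cells. The members' median log2 ratio in BMSCs, -1.38, became -1.22 after thinning, -1.18 in Xist cells, -1.59 in Y cells, -1.18 with TMM, -0.17 with Control subtype shares and -0.18 with equal shares. In dpMSCs the median of -0.23 became -0.34 after thinning. In ECs the median over all 9 members, -0.86, became -0.27 without Scrublet cells, -0.35 after thinning and -1.78 with equal shares. The listed genes past 2-fold in BMSCs numbered 16 and after thinning 9, where fewer UMIs leave fewer genes measured. The share of Control dpMSCs with 3 or more members was 66.5% thinned and 91.8% unthinned. The alternatives for the lists and the unthinned share were chosen after seeing the data. The direction turned for Il1rn in BMSCs with Control shares (0.015) and for Kitl in ECs with Control (-0.18) and equal (-0.26) shares. In dpMSCs the signs of Flt3l, Cxcl14 and Il1rn, whose main intervals held 0, also varied. Flt3l, at -0.10, was 0.054 with graph clusters and 0.14 in Xist cells, and Cxcl14 was -0.10 (-0.17 to -0.02) after thinning. Il1rn, at 0.02, was 0.25 in Y cells, beyond its counting interval of -0.07 to 0.10. The cause of the other changes was not tested. Of the single members' ratios under alternatives, 46 of 108 in BMSCs, 8 of 90 in dpMSCs and 27 of 107 in ECs moved beyond their counting interval, besides the 1 and 2 that turned in BMSCs and ECs. Counting limits Ccl19 and C3 most, with 36 and 49 UMIs in Dach1OE dpMSCs, and the difference between mice within a group cannot be told apart from that between the groups.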

Other observations

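Some values of cartilage cells were not described above. In upper chondrocytes Kitl had 40.0 CPM in Control against 15.9 CPM in Dach1OE (log2 ratio -1.33), Il1rn 22.2 and 5.57 CPM (-1.99) and Cxcl14 190 and 127 CPM (-0.57), and Adipoq was 163 and 47.4 CPM in the same cells. C3 in prehypertrophic chondrocytes was 1.31 and 1.51 CPM on 43 and 57 UMIs. Chondrocytes gated on Col10a1 and Ibsp had a mean Cxcl14 level of 304 CPM over the 2 libraries, and the genes that led that gate by fold were Mmp10, Ffar4, Gjb2 and Gdf5. Over all kept cells, without regard to type, the log2 ratios ran from -2.50 for Ccl19 to -0.32 for Flt3l, beside a median of -0.04 over all genes.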
